A study of Mus musculus with 8 samples.

Results

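The genes described here are 39 genes of the unfolded protein response (UPR) and the integrated stress response (ISR), taken by symbol from a fixed list, and all 39 were found among the 21080 genes of the tables. They were measured by RNA-seq in mouse bone marrow-derived macrophages (BMDMs). WT cells came from LysM-Cre mice, and Nudt21-cKO cells (cKO below) came from Nudt21 fl/fl LysM-Cre mice, so that both genotypes carried the Cre transgene and both were on the C57BL/6 background. LysM-Cre acts in myeloid cells, the exons flanked by loxP sites are only a part of Nudt21, and NUDT21 is a subunit of the cleavage factor that binds UGUA motifs and sets which polyadenylation site an mRNA uses. Cells were taken untreated (0 h) or after IFNγ overnight followed by LPS for 4 h (4 h), with 2 samples in each of the 4 groups and 8 in all. Each sample was a pool of cells from 2 mice, and the age of the mice was not given in the sources used here. The treatment label names IFNγ/LPS for all 8 samples, so the untreated state of the 0 h samples rests on their titles. The study sequenced these samples to look for the mechanism behind the weaker inflammatory response of macrophages without Nudt21.

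In the UPR, misfolded protein in the endoplasmic reticulum (ER) is sensed by PERK (encoded by Eif2ak3), IRE1α (Ern1) and ATF6, which raise the output of chaperones, disulfide isomerases and the machinery of ER-associated degradation (ERAD) that returns faulty proteins to the cytosol. PERK also belongs to the ISR, in which kinases that respond to ER stress, amino acid shortage or heme deficiency phosphorylate eIF2α. General translation then falls while the transcription factor ATF4 is made, and ATF4 drives genes for amino acid supply and for feedback, such as Asns, Trib3 and Chac1. In macrophages, toll-like receptor signalling engages parts of both programmes.

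Some promoters of the list hold known elements of these programmes, and the sites below are shown as examples of each element, in genes described below. A promoter from RefSeq (GRCm38.p6, 250 bases before to 50 bases after the start) was matched for 34 of the 39 genes. The ER stress response element ERSE, the letters CCAAT and CCACG with any 9 bases between them, was searched on both strands and found in 8 of the 34 promoters, namely those of Hspa5, Hsp90b1, Calr, Canx, Dnajc3, Creld2, Pdia6 and Syvn1. It was found in 0.137% of the 27025 symbols with a promoter. The element ERSE-II, ATTGG and CCACG with 1 base between them, was in 2 of the 34 (Dnajb11 and Herpud1) and in 0.0444% of all symbols. The ATF4-type element TGATGNAA was in 4 of the 34 (Trib3, Chac1, Asns and Herpud1) and in 4.51% of all symbols, and TGACGTGG, an element bound by XBP1, was in 0 of the 34 and in 0.714% of all symbols. ERSE and ERSE-II share the letters CCACG, which alone were in 27 of the 34 promoters and in 35.5% of all symbols. Each line gives 30 bases in the direction of the gene with the element in capitals. In the Trib3 and Chac1 lines the element stands on the other strand, so that its reverse complement is printed.
Hspa5: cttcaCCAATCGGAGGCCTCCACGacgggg
Hsp90b1: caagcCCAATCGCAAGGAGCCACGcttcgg
Pdia6: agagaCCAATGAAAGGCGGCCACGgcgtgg
Herpud1: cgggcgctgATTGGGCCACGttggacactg
Trib3: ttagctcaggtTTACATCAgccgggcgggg
Chac1: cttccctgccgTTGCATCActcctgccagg
Asns: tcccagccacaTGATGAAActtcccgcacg
These windows lie at chr2:34772020-34772049 on the plus strand (Hspa5), chr10:86705632-86705661 on the minus strand (Hsp90b1), chr12:17266486-17266515 on the plus strand (Pdia6), chr8:94386368-94386397 on the plus strand (Herpud1), chr2:152344028-152344057 on the minus strand (Trib3), chr2:119351038-119351067 on the plus strand (Chac1) and chr6:7693214-7693243 on the minus strand (Asns). A match of letters is a description of the sequence and was not tested as a binding site.

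The values are the mean number of reads covering each base of a gene, called coverage here. Coverage was scaled between the 8 samples by the median ratio over 12863 genes, and differences are log2 fold changes of the scaled coverage plus 0.1, with their standard error (SE). All 39 genes passed the filter of a mean scaled coverage of 0.5, as did 16125 genes in all. A gene was called when its fold change exceeded 1.5 and its adjusted p was under 0.05 in limma fitted to all 8 samples, with Benjamini-Hochberg adjustment over the 16125 genes. The interaction, which compares the genotype difference at 4 h with that at 0 h, was called on an adjusted p under 0.05 alone, with no fold required. With pools of cells and 2 samples per group, these p-values measure the spread between the samples prepared here.

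The summed coverage of a sample was between 14950347 and 17954882, and the files hold no counts, so that the counting error behind a value is unknown. At 0 h, Nudt21 was at 518 and 465 in WT and at 110.1 and 111 in cKO samples, and at 4 h it was at 907 and 839 against 181 and 145. It was 4.44-fold lower in cKO cells at 0 h and 5.38-fold lower at 4 h (log2 -2.15 and -2.43, SE 0.14, adjusted p = 0.00417 and 0.00205, limma), in the direction of the labels. All 10 macrophage markers were above 1 in all 8 samples, with summed coverage of 89592 to 97957 at 0 h and 103534 to 127117 at 4 h. Of these 10 markers, 3 were called lower in cKO cells at 0 h, and 3 lower and 1 higher at 4 h. Markers of other cell types numbered 36, of which 29 were tested, and 1 was called lower at 0 h and 3 lower at 4 h. The 9 neutrophil markers summed to 17320.2 and 19257 in WT and 19344 and 23751 in cKO samples at 0 h, and to 28849 to 32560.4 in the 4 samples at 4 h. The 9 lymphocyte markers summed to at most 153 in a sample. The part of these differences in the results below was not tested, and in such bulk samples fewer cells of a type and less RNA per cell cannot be told apart.

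In resting cells, loss of Nudt21 went with higher transcripts of 3 ERAD genes, Sel1l, Edem1 and Derl1, and lower transcripts of 2 folding factors, Sdf2l1 and Pdia4. Of these 5 calls, only that of Edem1 held when only the 4 samples at 0 h were fitted. Of the 18 kinase, ISR, amino acid and UPR sensor genes, 0 were called at 0 h by limma, and 7 had an unadjusted p under 0.05, and with quantile normalization Ppp1r15a was called higher. Calls at 0 h went to 3 higher and 2 lower genes of the 39, where 2.77% and 2.25% of all genes tested were called in these directions. The median log2 difference of the 39 genes was -0.19, against 0 for all genes tested, and 26 of them were below 0.

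**Figure D1:**
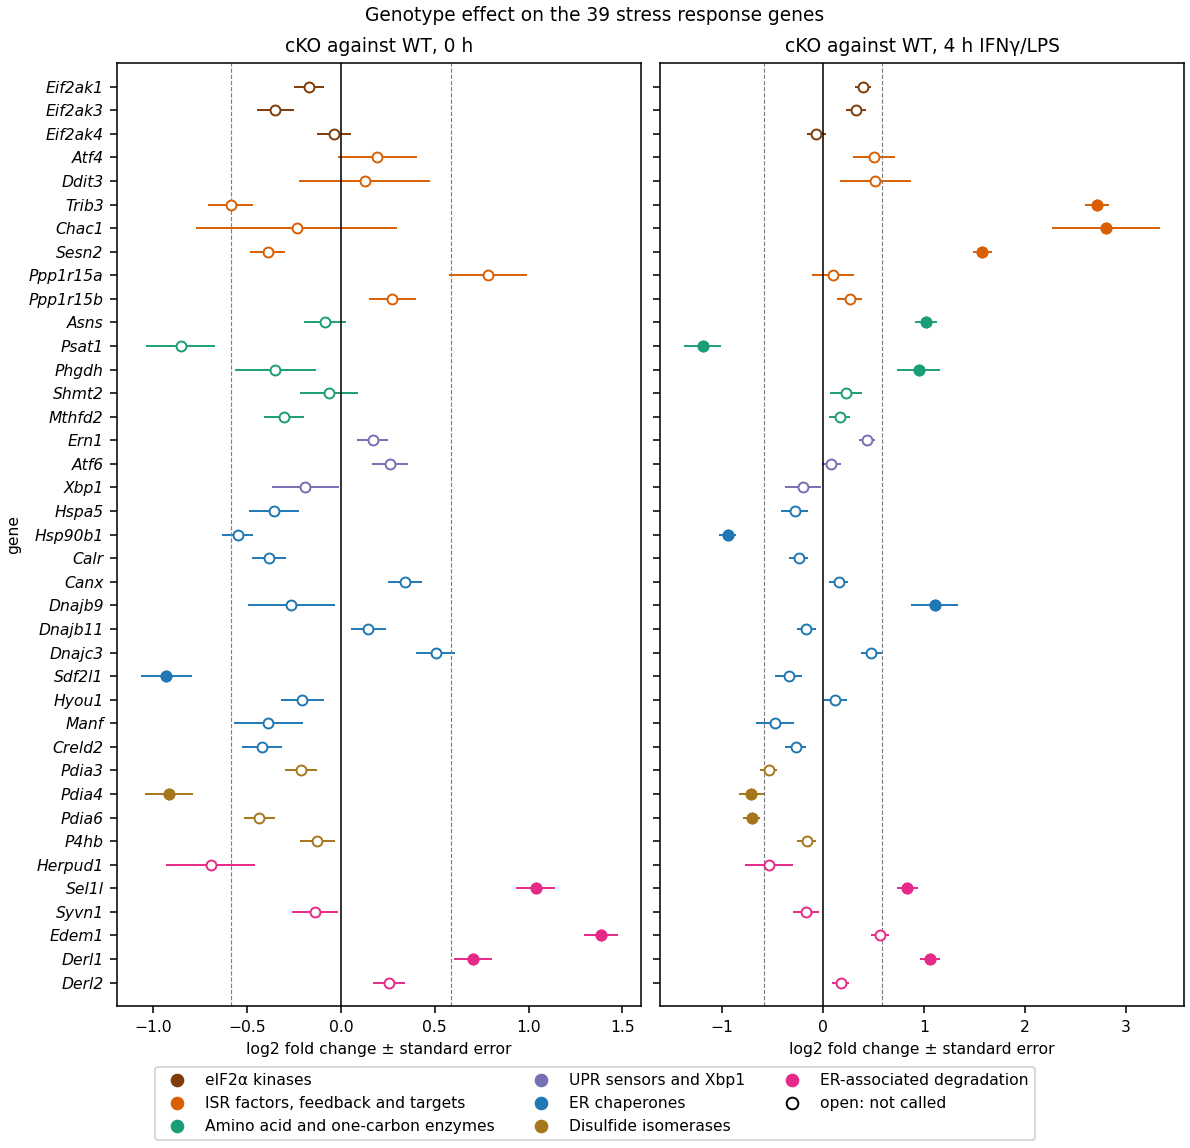
Log2 fold change of scaled coverage in cKO against WT for each of the 39 genes at 0 h (left) and after 4 h of IFNγ/LPS (right), with its standard error from limma over all 8 samples. Filled points are called, dashed lines mark a 1.5-fold change and colours mark the gene groups; Trib3, Chac1 and Sesn2 stand furthest to the right at 4 h, and Edem1, Sel1l and Ppp1r15a, the last not called, at 0 h.

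The called ERAD genes encode parts of the route by which glycoproteins leave the ER. SEL1L holds the ubiquitin ligase HRD1 in the membrane, EDEM1 trims mannose from misfolded glycoproteins, and DERL1 belongs to the channel. Edem1 (GRCm38 chr6:108828641-108859356, plus strand) had a coverage of 1666 and 1783 in WT and 4518 and 4485 in cKO samples at 0 h, a 2.61-fold difference (log2 1.38, SE 0.09, adjusted p = 0.00422, limma). Both cKO samples lay far above both WT samples. At 4 h the values were 5022 and 4694 in WT and 6959.5 and 7404 in cKO samples, which did not overlap, but the 1.48-fold difference was under the fold needed for a call (log2 0.56, SE 0.09, adjusted p = 0.0187, limma). It was called there on the values as deposited, without scaling between samples (log2 0.86), and with samples scaled to equal total coverage (0.65).

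Sel1l (chr12:91806043-91849157, minus strand) was at 918 and 1068 in WT and 2037 and 2027 in cKO samples at 0 h, and at 1550.4 and 1652 against 2832 and 2869 at 4 h. It was 2.05-fold and 1.78-fold higher in cKO cells at the respective times (log2 1.04 and 0.83, SE 0.10, adjusted p = 0.0146 and 0.0114, limma), with no overlap of the genotypes. Derl1 (chr15:57869502-57892448, minus strand) was at 1699.6 and 1863 in WT and 2862 and 2932 in cKO samples at 0 h, and at 2059 and 1943 against 3960.5 and 4379 at 4 h. Its difference was 1.63-fold at 0 h and 2.08-fold at 4 h (log2 0.70 and 1.06, SE 0.10, adjusted p = 0.0284 and 0.00651, limma), again with the cKO samples above the WT samples at both times. A partial copy of Derl1, Gm35638, is 95.4% identical to it over 652 bases and is not among the genes of the tables.

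The other 3 ERAD genes were called at neither time. Syvn1, which encodes the ligase HRD1 that SEL1L holds, had log2 differences of -0.14 and -0.17, and Derl2 had 0.26 and 0.18. Herpud1, which assembles the HRD1 complex and carries ERSE-II, had -0.69 at 0 h and -0.54 at 4 h (adjusted p = 0.177 and 0.187, limma), opposite in sign to Sel1l, Edem1 and Derl1.

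Annotated 3′UTR length was set beside these values because of the role of NUDT21. In GENCODE release M21 the 3′UTR of the principal transcript, the longest where several were marked so, was 3801 bases for Sel1l, 3792 for Edem1 and 2266 for Derl1, which placed them at percentiles 92.8, 92.7 and 79.3 of the 13585 tested genes with such an annotation. These 3′UTRs hold 29, 21 and 10 UGUA motifs. Long 3′UTRs were also annotated for Atf6 (5205 bases), Ern1 (3892), Dnajc3 (3513), Ppp1r15b (2896), Derl2 (2879), Eif2ak1 (2362) and Canx (2321), all longer than that of Derl1, which were called at neither time on scaled values, although on the deposited values Dnajc3 was called higher at both times (log2 0.62 and 0.77) and Ern1 and Eif2ak1 at 4 h. Among the 8 genes called higher at 4 h the median was 1093 bases and 3 UGUA motifs, and Phgdh (133 bases), Asns (146) and Trib3 (785) held 0, 1 and 1. The median over the 39 genes was 988 bases, against 929 over all genes. Coverage averaged over a gene does not resolve which polyadenylation site was used, nor the splicing of Xbp1 by IRE1α.

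The lower transcripts at 0 h were those of folding factors. Sdf2l1, which encodes an ER protein that works with the chaperone BiP, was at 1218 and 1199 in WT and 697 and 577 in cKO samples, 1.90-fold lower (log2 -0.93, SE 0.14, adjusted p = 0.0303, limma). At 4 h its values were 2234 and 1919 against 1578 and 1688, and its difference of -0.34 was not called (adjusted p = 0.149, limma). Pdia4, a protein disulfide isomerase, was at 1083 and 1289 in WT and 613 and 639 in cKO samples at 0 h and at 1152 and 1318 against 740.2 and 766 at 4 h. It was 1.89-fold and 1.64-fold lower (log2 -0.92 and -0.71, SE 0.13, adjusted p = 0.0266 and 0.0237, limma), and its genotypes did not overlap at either time.

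At 4 h, 2 more of these lower genes passed the test. Hsp90b1 (chr10:86690209-86705509, minus strand), which encodes the ER chaperone GRP94 that folds toll-like receptors and integrins, was at 6545 and 6872 in WT and 4683 and 4477 in cKO samples at 0 h and at 17255 and 16073 against 8659 and 8615 at 4 h. The cKO samples were below the WT samples at both times, 1.46-fold at 0 h, which was under the fold needed, and 1.93-fold at 4 h (log2 -0.55 and -0.95, SE 0.08, adjusted p = 0.0335 and 0.00578, limma). Pdia6 was at 2225 and 2176 in WT and 1610.4 and 1646 in cKO samples at 0 h, and at 7174 and 6559.8 against 4226 and 4187 at 4 h. Its 4 h difference was 1.63-fold (log2 -0.71, SE 0.08, adjusted p = 0.0102, limma).

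Across the groups, all 4 disulfide isomerase genes had lower scaled means in cKO cells at both times, with 1 called at 0 h and 2 at 4 h, but on the deposited values P4hb turned to 0.13 at 4 h and none of the 4 was called at either time. Of the 11 ER chaperone genes, 1 was called lower at 0 h, and 1 lower and 1 higher at 4 h, with median log2 differences of -0.36 and -0.24, of which the latter turned to 0.053 on the deposited values. Over all genes tested, 2.77% were called higher and 2.25% lower at 0 h, and 7.99% and 6.02% at 4 h. Hspa5, which encodes BiP, the chaperone that holds the UPR sensors inactive, was called at neither time. Its values were 6637 and 6919 in WT and 5350.3 and 5236 in cKO samples at 0 h, and 38521 and 30258 against 27598 and 28562 at 4 h (log2 -0.36 and -0.28, SE 0.13, adjusted p = 0.207 and 0.214, limma). The chaperone gene called higher was Dnajb9, an ER co-chaperone of BiP that represses IRE1α, with 437 and 291 in WT and 695 and 849.8 in cKO samples at 4 h (log2 1.11, SE 0.23, adjusted p = 0.0354, limma). At 0 h it was at 414 and 388 against 362 and 308.

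**Figure D2:**
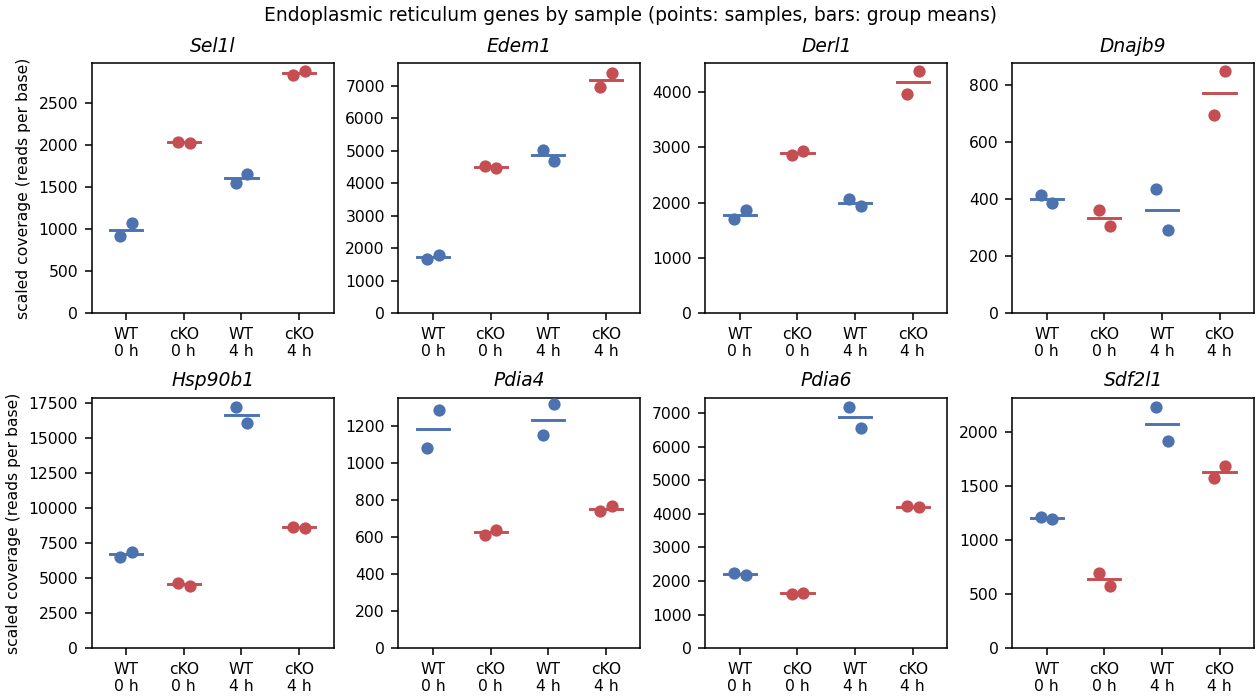
Scaled coverage (reads per base, linear axis from 0) of 8 ER genes in each of the 8 samples, with WT in blue, cKO in red and horizontal bars at the group means. For Sel1l, Edem1 and Derl1 the red points lie above the blue points at each time, and for Hsp90b1, Pdia4 and Pdia6 they lie below.

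After IFNγ/LPS, the 3 largest genotype differences among the 39 genes were in ISR targets. Trib3, Chac1 and Sesn2, all ATF4 targets, were 6.56-fold, 6.99-fold and 2.98-fold higher in cKO cells, and Asns and Phgdh, enzymes of asparagine and serine synthesis, were 2.03-fold and 1.93-fold higher, while Psat1, the next enzyme after PHGDH, was 2.29-fold lower. At 4 h, 8 of the 39 passed as higher and 4 as lower, where 7.99% and 6.02% of all genes tested were called in these directions. The median log2 difference of the 39 genes was 0.15, against 0 over all genes. By groups, 3 of 7 ISR factors and targets were called higher, 2 of 5 amino acid and one-carbon enzymes higher and 1 lower, and 2 of 6 ERAD genes higher. Of the 3 eIF2α kinases and 3 UPR sensor genes, 0 were called by limma, and 2 and 1 of them had an unadjusted p under 0.05. On the deposited values Eif2ak1, Eif2ak3 and Ern1 were called higher at 4 h (log2 0.69, 0.62 and 0.73).

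Trib3 (chr2:152337422-152344032, minus strand) encodes a pseudokinase that limits ATF4 and AKT signalling. Its coverage was 37.9 and 35.4 in WT and 23.8 and 24.9 in cKO samples at 0 h, and 16.1 and 15.8 against 95.3 and 116 at 4 h. The genotypes therefore stood in opposite order at the start and after stimulation: cKO was lower at 0 h without a call (log2 -0.59, SE 0.12, adjusted p = 0.0627, limma) and higher at 4 h (log2 2.71, SE 0.12, adjusted p = 0.00112, limma). The difference between these genotype effects was 3.30 on the log2 scale (SE 0.17, adjusted p = 0.00235, limma).

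Sesn2 (chr4:132492032-132510501, minus strand) encodes a stress protein that restrains mTORC1 when leucine is short. It was at 242 and 263 in WT and 197 and 188 in cKO samples at 0 h, and at 45.3 and 43.6 against 128 and 138 at 4 h. The genotype effect went from -0.39 at 0 h (SE 0.09, adjusted p = 0.0857, limma) to 1.58 at 4 h (SE 0.09, adjusted p = 0.00228, limma), a change of 1.97 (SE 0.13, adjusted p = 0.00528, limma). All samples at 4 h were below all samples at 0 h, and the WT samples at 4 h were the lowest.

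Chac1 (chr2:119351229-119354381, plus strand), which encodes an enzyme that breaks down glutathione, was low in resting cells, at 6.78 and 2.41 in WT and 4.24 and 2.77 in cKO samples. At 4 h it was at 11.2 and 7.66 in WT and 71.7 and 59.9 in cKO samples (log2 2.81, SE 0.54, adjusted p = 0.0284, limma). The replicates of the resting groups spread widely at these low levels, and the change of the genotype effect, 3.04 with an SE of 0.76, was not called (adjusted p = 0.109, limma).

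Asns (chr6:7675169-7693254, minus strand) was at 126 and 115 in WT and 114 and 112 in cKO samples at 0 h, and at 272 and 233 against 515 and 506 at 4 h. It was higher in both cKO samples at 4 h (log2 1.02, SE 0.11, adjusted p = 0.00817, limma), and the genotype effect differed between the times by 1.11 (SE 0.16, adjusted p = 0.0394, limma). Phgdh, at the head of the serine pathway, was at 73.8 and 87.2 in WT and 126 and 189.7 in cKO samples at 4 h (log2 0.95, SE 0.22, adjusted p = 0.0425, limma). The genome holds 8 near-identical copies of Phgdh, 95.3% to 98.7% identical, which are not among the genes of the tables, so that its value is uncertain.

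Psat1 (chr19:15904678-15947337, minus strand) ran the other way. It was at 174 and 237 in WT and 119.8 and 105 in cKO samples at 0 h, and at 1814 and 1913 against 882 and 751 at 4 h, with the cKO samples below the WT samples at both times (log2 -0.85 and -1.19, SE 0.19, adjusted p = 0.0714 and 0.0182, limma). Shmt2 and Mthfd2, mitochondrial enzymes of one-carbon metabolism, had log2 differences of 0.23 and 0.16 at 4 h and were not called. At 0 h all 5 enzymes of this group had log2 differences below 0 on scaled values, none of them called by limma (2 had an unadjusted p under 0.05), and Asns and Shmt2 stood above 0 on the deposited values.

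Transcripts of Atf4 and Ddit3, which encode transcription factors of the ISR, did not reach a call between genotypes on scaled values. Amounts of ATF4 protein were not measured in these samples. Atf4 was at 1200.0 and 872 in WT and 1126 and 1217 in cKO samples at 0 h, and at 2722 and 2055 against 3324 and 3395 at 4 h. Both cKO samples were above both WT samples at 4 h, but the 2 WT samples were far apart (log2 0.51, SE 0.21, adjusted p = 0.164, limma). Atf4 was called at 0.80 on the deposited values. Ddit3, which encodes the factor CHOP, was at 376 and 287 in WT and 410.4 and 537 in cKO samples at 4 h (log2 0.52, SE 0.35, adjusted p = 0.359, limma), and its exons overlap those of Mars and Gm4189 on the opposite strand. Because the library kit as named does not mark strand, reads of such overlapping genes cannot be told apart. Exons of Ppp1r15a, Pdia6 and Syvn1 likewise overlap those of Tulp2, Atp6v1c2 and Mrpl49, and exons of Hsp90b1 overlap those of Gm15344 on its own strand. Ppp1r15a, which encodes the GADD34 subunit that reverses eIF2α phosphorylation, had log2 differences of 0.78 at 0 h and 0.10 at 4 h, and Ppp1r15b had 0.27 and 0.26.

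Among the sensors, Ern1 was at 146 and 144 in WT and 199 and 193 in cKO samples at 4 h, a 1.35-fold difference under the fold needed (log2 0.44, SE 0.08, adjusted p = 0.0266, limma). Eif2ak1, the heme-regulated kinase, likewise differed by 1.31-fold at 4 h (log2 0.39, SE 0.08, adjusted p = 0.0334, limma), and its exons overlap Aimp2. Eif2ak3 had log2 differences of -0.35 and 0.33, Eif2ak4 had -0.04 and -0.07, Atf6 had 0.26 and 0.08, and Xbp1 had -0.19 and -0.20, none of them called by limma on scaled values.

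**Figure D3:**
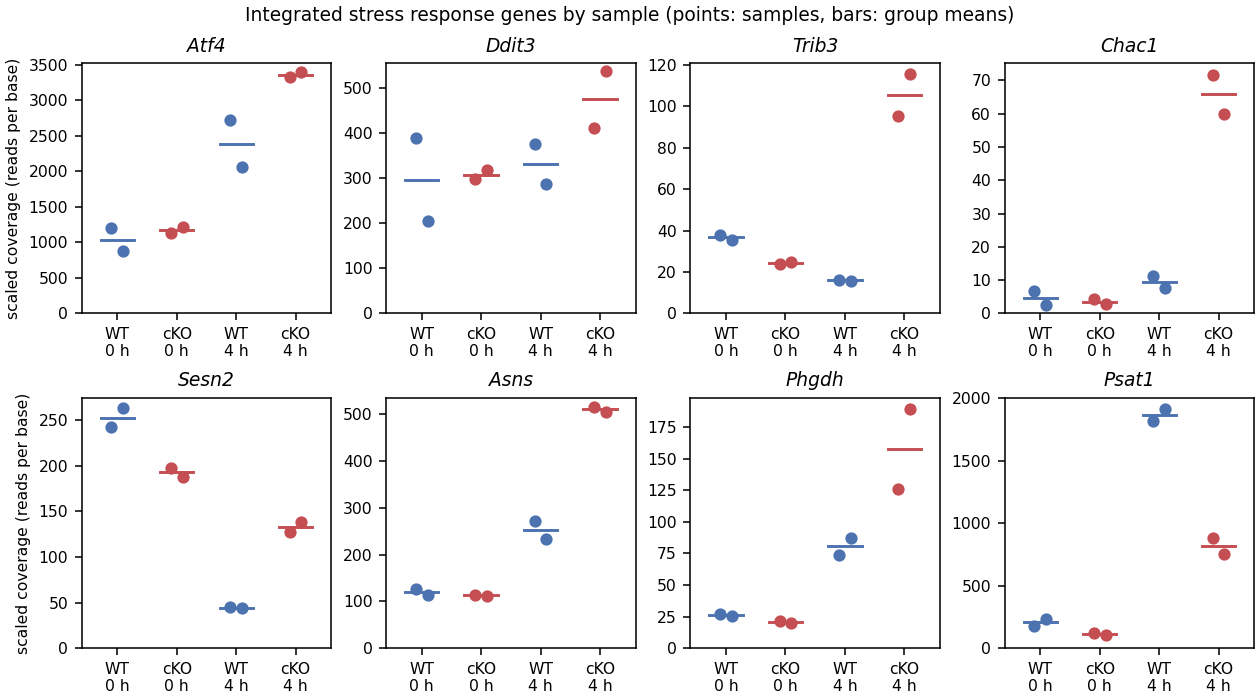
Scaled coverage (reads per base, linear axis from 0) of 8 ISR genes in each of the 8 samples, with WT in blue, cKO in red and horizontal bars at the group means. For Trib3, Chac1, Sesn2 and Asns the red points lie above the blue points at 4 h but not at 0 h, and for Psat1 they lie below at both times.

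These calls differed in how much they rested on single samples. When each of the 4 samples compared was left out in turn, Edem1 at 0 h and Trib3, Sesn2, Asns, Derl1 and Hsp90b1 at 4 h were called each time. When only the 4 samples compared were fitted, Edem1 at 0 h and Trib3 and Sesn2 at 4 h were called, while the other genotype calls among the 39 were lost, including those of Asns, Derl1 and Hsp90b1 (adjusted p = 0.0637, 0.0584 and 0.0521, limma). Without any single one of the 4 samples compared, the 0 h calls of Derl1, Sdf2l1 and Pdia4 (adjusted p from 0.0532 to 0.142, limma) and the 4 h calls of Chac1 and Psat1 (0.0519 to 0.115) were lost. Sel1l at 0 h was lost without cKO replicate 3 or 4 (highest adjusted p = 0.0827, limma), and Sel1l and Pdia6 at 4 h without cKO replicate 4 (0.0637 and 0.0577). Dnajb9 and Pdia4 at 4 h were lost without WT replicate 2 or either cKO sample (highest adjusted p = 0.151 and 0.101, limma), and Phgdh without either WT sample or cKO replicate 4 (0.125). All kept their sign in these fits. On the deposited values 14 of the list were higher and 2 lower at 4 h by the same rule, where 2604 and 448 of all 16284 genes tested were called. There 85.3% of all calls were of higher genes against 57.0% on scaled values, and the median gene stood at 0.28. The calls of Trib3, Chac1, Sesn2, Asns, Dnajb9, Sel1l, Derl1, Psat1 and Hsp90b1 at 4 h held under all 4 scalings tried, while those of Phgdh, Pdia4 and Pdia6 were lost under at least 1. At 0 h the deposited values gave 4 higher and 1 lower, where 532 and 262 of all 16284 genes tested were called. Higher genes made up 67.0% of all calls there, against 55.1% on scaled values. Sel1l, Edem1, Derl1 and Sdf2l1 held under all 4 scalings, while Pdia4 was lost on the deposited values and with equal total coverage.

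Stimulation moved members of the list in both directions. In WT cells, transcripts of the eIF2α phosphatase subunits, of Psat1 and Mthfd2 and of the chaperone genes Hspa5 and Manf rose, and those of the stress sensor kinases Eif2ak1, Eif2ak3, Eif2ak4 and Ern1 and of Sesn2 and Trib3 fell. These 12 calls held under all 4 scalings. On scaled values, calls went to 23 higher and 6 lower genes of the 39 in WT cells, where 25.9% and 27.7% of all genes tested were called. In cKO cells 24 were called higher and 3 lower, where 25% and 26.2% of all genes were called. On the deposited values, on which the median gene stood at -1.24 in WT and -1.03 in cKO cells, 6 of the 39 were higher and 12 lower in WT (11.7% and 54.7% of all genes), and 11 higher and 9 lower in cKO (13.2% and 50.4%). The share of higher among all calls was 17.6% and 20.7% on the deposited values, against 48.4% and 48.8% on scaled values. Genes called on both scales made up 11.9% higher and 27.8% lower of all genes in WT, and 13.3% and 26.3% in cKO. Which scale better reflects RNA per cell cannot be told from these files.

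Ppp1r15a had the largest rise in WT cells, from 242 and 214 to 6978 and 4691, and went from 376 and 409 to 5905 and 6371 in cKO cells (log2 4.65 and 3.97, SE 0.21, adjusted p = 5.86e-05 and 9.97e-05, limma). On the deposited values these rises were 3.55 and 3.05, and in cKO cells Chac1 rose more on either scale. Ppp1r15b, which encodes the constitutive alternative to GADD34, rose from 564 and 672 to 6448 and 5624 in WT and from 758 and 729.8 to 7149 and 7289 in cKO cells (log2 3.29 and 3.28, SE 0.13), and by 2.19 and 2.36 on the deposited values. The rise in cKO minus that in WT was -0.68 (SE 0.29) for Ppp1r15a and -0.01 (SE 0.18) for Ppp1r15b, neither of them called.

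Psat1 rose by 3.20 in WT and 2.86 in cKO cells on the log2 scale (SE 0.19). Its cKO samples lay below its WT samples before and after stimulation, with a call at 4 h only. Hspa5 rose by 2.33 and 2.41 (SE 0.13), Manf, a secreted ER stress factor, by 2.13 and 2.04 (SE 0.19), and Mthfd2 by 2.12 and 2.58 (SE 0.11). Their rises on the deposited values were 1.23 and 1.49, 1.03 and 1.12, and 1.01 and 1.66. Manf was at 865 and 715 in WT and 631 and 573 in cKO samples at 0 h and at 4017 and 2956 against 2438 and 2519 at 4 h, and its exons overlap those of Dcaf1 and Rbm15b. Mthfd2 was at 129.7 and 131 against 104 and 108 at 0 h, and at 521 and 615 against 643 and 624 at 4 h. All samples at 4 h stood above all samples at 0 h for these genes.

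Eif2ak3 fell most, from 296 and 281 to 35.7 and 31.6 in WT and from 221 and 233 to 42.8 and 41.6 in cKO cells, an 8.57-fold and a 5.36-fold difference (log2 -3.10 and -2.42, SE 0.10, adjusted p = 2.53e-05 and 4.7e-05, limma). Its differences on the deposited values were larger, at -4.20 and -3.34. Ern1 was at 404 and 428 in WT and 457 and 478 in cKO samples at 0 h, and fell by 1.52 and 1.25 on the log2 scale (SE 0.08), and by 2.62 and 2.17 on the deposited values. Eif2ak4, which encodes the amino acid sensor GCN2, was at 213 and 197 in WT and 198 and 200.4 in cKO samples at 0 h and at 86.4 and 94.2 against 87.0 and 85.4 at 4 h. It fell by 1.18 and 1.21 (SE 0.09), and by 2.28 and 2.13 on the deposited values. Eif2ak1 was at 871 and 941 in WT and 804 and 805 in cKO samples at 0 h and at 463 and 464 against 604 and 614 at 4 h. It fell by 0.97 in WT (2.07 on the deposited values), and its difference of -0.40 in cKO cells was under the fold needed (SE 0.08, adjusted p = 0.0004 and 0.00951, limma), while under the 3 other scalings it was called lower there (-0.92 to -1.36).

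The clearest difference between the genotypes lay in Trib3, which fell by 1.20 on the log2 scale in WT cells (SE 0.12, adjusted p = 0.000754, limma) and rose by 2.1 in cKO cells (SE 0.12, adjusted p = 0.000128, limma). Both directions held under all 4 scalings, with values of -2.30 and 1.19 on the deposited scale. Sesn2 fell by 2.50 in WT cells (SE 0.09, adjusted p = 3.68e-05, limma), and in cKO cells its difference of -0.53 was under the fold needed on scaled values and was called at -1.45 on the deposited values. Asns rose by 1.06 in WT and 2.17 in cKO cells (SE 0.11), and on the deposited values it stood at -0.04 in WT and rose by 1.25 in cKO cells. Chac1 rose by 4.22 in cKO cells (SE 0.54, adjusted p = 0.00188, limma), from a level of 4.24 and 2.77. Of the 39 genes, 3 were called for a higher and 1 for a lower genotype effect at 4 h than at 0 h (Trib3, Sesn2 and Asns, and Edem1), where 1.82% and 1.14% of all genes tested were called. With a replicate block, which leaves fewer residual degrees of freedom, 0 of the 39 were called in the interaction. Trib3 and Sesn2 were called in each of the 8 fits that left out 1 sample. The call of Edem1, with a change of -0.82 (SE 0.13, adjusted p = 0.0466, limma), was lost in each of the 8 fits (adjusted p from 0.0516 to 0.151). That of Asns was lost when either WT sample at 0 h or any cKO sample was left out (highest adjusted p = 0.135, limma), and with quantile normalization (log2 0.91), and that of Edem1 also on the deposited values and with equal total coverage.

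Atf4 rose by 1.21 in WT and 1.52 in cKO cells on scaled values (SE 0.21, adjusted p = 0.00538 and 0.00251, limma), and stood at 0.10 without a call in WT and 0.60 with a call in cKO cells on the deposited values. Xbp1, the substrate of IRE1α, was at 1109.7 and 1159.9 in WT and 959 and 1032 in cKO samples at 0 h and at 2470.4 and 1765 against 1746 and 1899 at 4 h. Its scaled rises of 0.88 and 0.87 (SE 0.18, adjusted p = 0.00932 and 0.0101, limma) became -0.22 and -0.05 on the deposited values. Atf6 was at 709 and 805 in WT and 889 and 922 in cKO samples at 0 h, at 814 and 838 against 873 and 872 at 4 h, and was called in neither genotype on scaled values and lower in both on the deposited values (-0.98 and -0.97). Ddit3 was at 389 and 204 in WT and 297 and 318 in cKO samples at 0 h, and was not called in either genotype by limma.

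**Figure D4:**
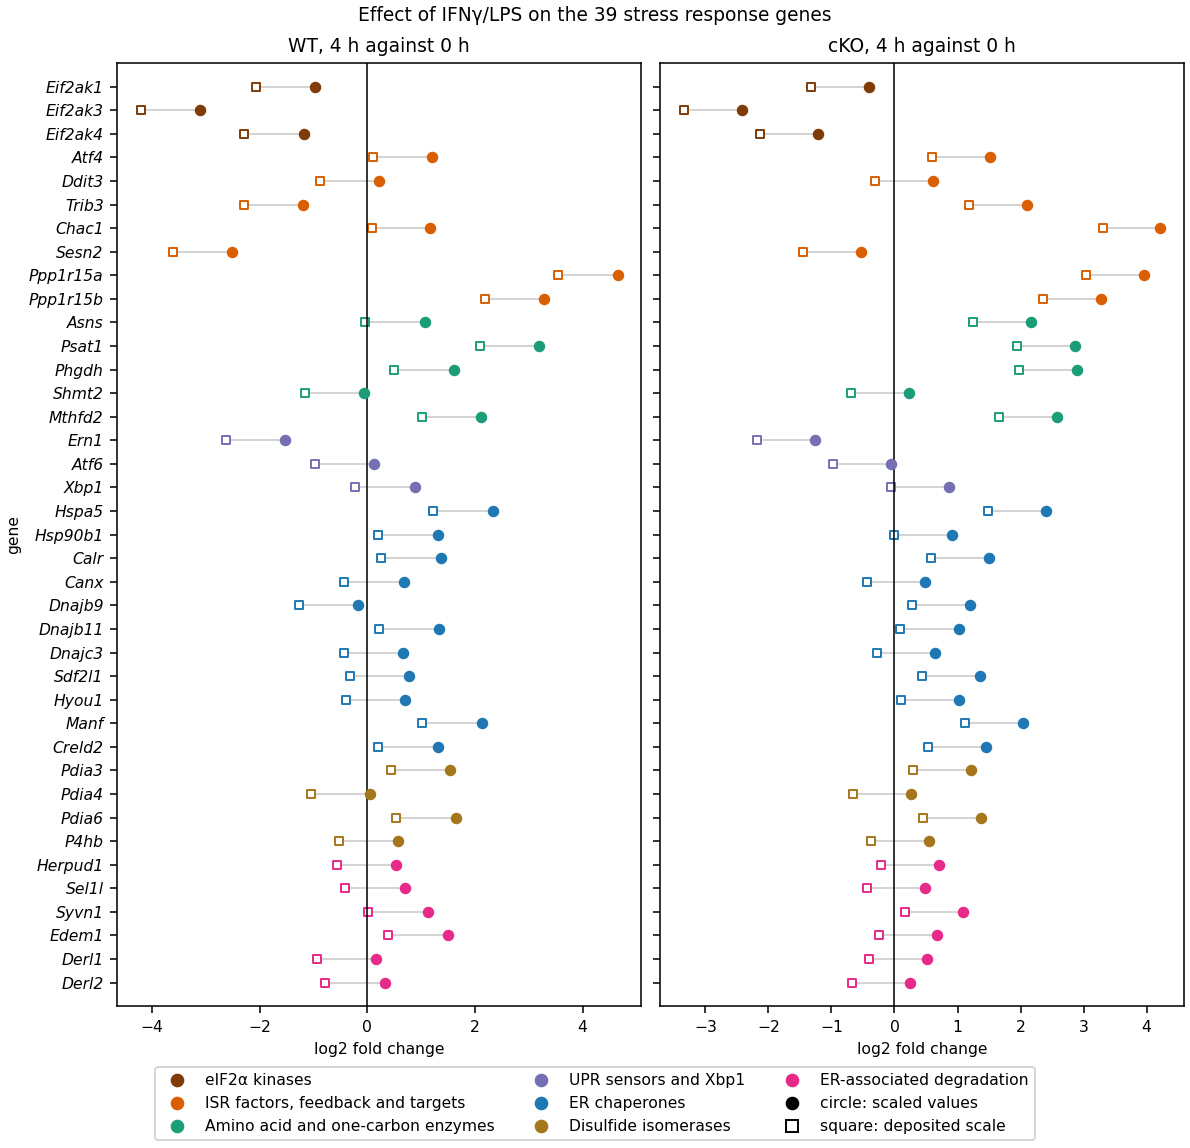
Log2 fold change of each of the 39 genes at 4 h against 0 h in WT (left) and cKO (right), on scaled values (circles) and on the values as deposited (squares), with colours for the gene groups. Every gene sits further left on the deposited values, Ppp1r15a and Ppp1r15b stay far to the right on both, Eif2ak3 stays far to the left, and Trib3 is left of 0 in WT and right of 0 in cKO.

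Further genes of the same pathways were read from lists drawn up by pathway, with earlier results of these data known. Of 119 such genes, 118 were in the tables and 117 were tested. At 4 h, 14 were called higher and 1 lower in cKO cells on scaled values, where 7.99% and 6.02% of all genes tested were called. On the deposited values 31 and 0 were called, where 2604 and 448 of all 16284 genes were. With quantile normalization 11 and 1 were called, where 948 and 820 of 16284 were. At 0 h, 6 were higher and 2 lower, where 2.77% and 2.25% of all genes were called. On the deposited values 7 and 0 were called, where 532 and 262 of all 16284 genes were. With quantile normalization 7 and 4 were called, where 614 and 597 of 16284 were. On scaled values the 0 h calls went to 2 higher and 2 lower of 17 amino acid genes, 2 higher of 42 ER folding and secretion genes and 2 higher of 21 ERAD genes. By groups at 4 h, 2 of 19 ISR factors, 5 of 17 amino acid transporters and enzymes, 3 of 18 tRNA synthetases, 2 of 42 ER folding and secretion genes and 2 of 21 ERAD genes were called higher. The amino acid transporters called higher were Slc7a11, Slc3a2, Slc7a5, Slc7a1 and Slc6a9, and the synthetases were Cars, Mars and Sars. Genes of the same lists that stood lower in cKO cells at 4 h without a call included Slc1a5 (log2 -0.47), Psph (-0.56) and Got1 (-0.43). Among the ISR factors they included Atf3 (-0.53) and Nupr1 (-0.89). The median differences of the ISR, amino acid, ER folding and ERAD groups were -0.03, -0.01, -0.07 and -0.003. In these groups 9 of 19, 8 of 17, 15 of 42 and 10 of 21 genes were above 0. Of the 18 synthetase genes, 15 had a difference above 0, with a median of 0.25, against 0 over all genes. The medians of these genes and of all genes were 0.55 and 0.28 on the deposited values, 0.34 and 0.070 with equal total coverage and 0.19 and -0.042 with quantile normalization.

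Gdf15, which encodes a stress cytokine driven by the ISR, was at 232 and 169 in WT and 401 and 362 in cKO samples at 0 h, and at 194 and 130.0 against 1789 and 2687 at 4 h. It was 13.8-fold higher in cKO cells at 4 h (log2 3.79, SE 0.31, adjusted p = 0.0048, limma). Gdf15 was called in each fit that left out 1 of the 4 samples at 4 h but not when only these 4 were fitted (adjusted p = 0.0605, limma). Slc7a11, the cystine transporter, was 5.26-fold higher at 0 h (50.3 and 78.1 against 316 and 345, log2 2.39, SE 0.25, adjusted p = 0.0147, limma) and 2.85-fold higher at 4 h (6201 and 4961 against 14818 and 16845, log2 1.51, SE 0.25, adjusted p = 0.0195, limma). The 0 h call was lost without cKO replicate 3 or 4 (highest adjusted p = 0.0865, limma) and the 4 h call without WT replicate 2 or either cKO sample (0.101). Wfs1, an ER membrane protein, was at 12.6 and 23.1 in WT and 47.1 and 46.0 in cKO samples at 4 h (log2 1.44, SE 0.32, adjusted p = 0.0391, limma), a call lost without WT replicate 1 or either cKO sample (highest 0.147). The gene called lower at 4 h was Creb3l2, a membrane-bound transcription factor (78.1 and 93.9 against 53.9 and 47.8, log2 -0.76, SE 0.15, adjusted p = 0.032, limma), lost without WT replicate 2 or either cKO sample (highest 0.14).

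In resting cells the largest rises among the called genes besides Slc7a11 were in Shmt1, a cytosolic one-carbon enzyme, at 36.3 and 32.4 in WT and 111 and 105 in cKO samples (log2 1.65, SE 0.25, adjusted p = 0.0329, limma), and in Ero1l, the oxidase that recharges disulfide isomerases, at 409 and 446 against 906 and 912 (log2 1.09, SE 0.08, adjusted p = 0.00683, limma). Psph, the last enzyme of serine synthesis after PHGDH and PSAT1, was lower in cKO cells at 0 h (109 and 91.4 against 41.6 and 50.8, log2 -1.12, SE 0.18, adjusted p = 0.0356, limma), as was the glutamine transporter Slc1a5 (339.7 and 301 against 202 and 194, log2 -0.69, SE 0.12, adjusted p = 0.0458, limma). The calls of Shmt1, Psph and Slc1a5 were lost without any single one of the 4 samples (adjusted p from 0.0849 to 0.199, limma) and that of Ero1l without cKO replicate 4 (0.0504). The calls of Psph and Slc1a5 were also lost on the deposited values and those of Shmt1 and Slc1a5 with equal total coverage. At 4 h equal total coverage lost the calls of Wfs1 and Creb3l2, and the deposited values that of Creb3l2. Fitting only the 4 samples compared lost the calls of Ero1l, Shmt1, Psph, Slc1a5, Wfs1 and Creb3l2, and those of Slc7a11 at both times. Without a filter on low values those of Slc1a5 and Wfs1 were lost.

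**Figure D5:**
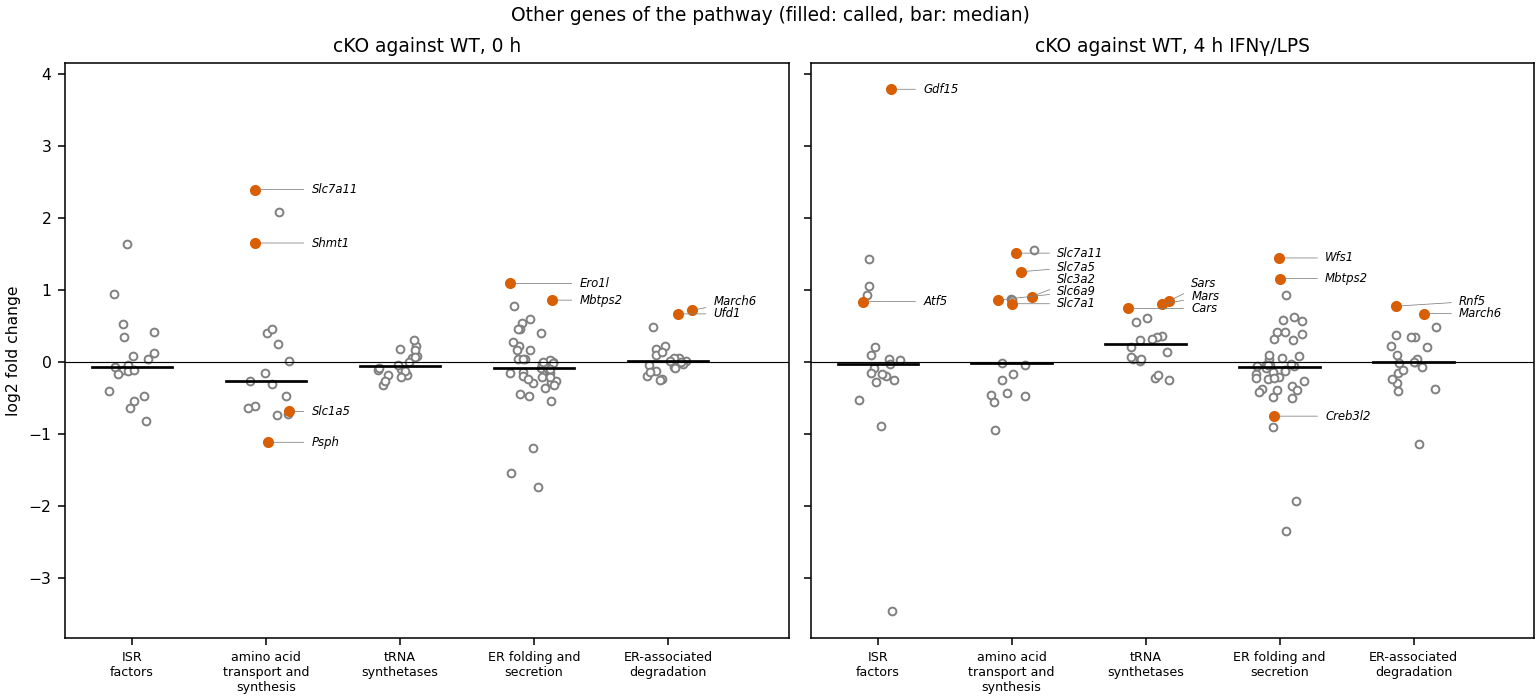
Log2 fold change of scaled coverage in cKO against WT for the 117 further genes of the pathways at 0 h (left) and 4 h (right), by group, with filled named points for called genes and bars at the group medians. At 4 h Gdf15 stands highest at 3.79, and amino acid transporters and tRNA synthetases lie among the called genes.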

How the data were processed

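RNA-seq libraries of total RNA from 8 BMDM samples were aligned by the authors with HISAT2 2.2.1 and assembled with StringTie 2.1.7, per the labels, on the mouse build GRCm38. The deposited tables, 1 for each time, hold the mean read coverage (signal) per base for each gene and sample, read as such from the values. Coverage was not scaled between samples by the authors, who quantified RefSeq genes, with no release given in the sources used here. The columns of the authors' own comparisons (log2 fold changes, p-values and calls) were not used. The members and lists were chosen with earlier results of these data known.

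Coverage was divided by median-of-ratios factors (1.38 to 1.55 at 0 h, 0.603 to 0.792 at 4 h), because summed coverage differed between samples while the median gene moved further, transformed as log2(value + 0.1), filtered at a mean of 0.5 and fitted in limma 3.58.1 (R 4.3.3) as 4 group means over all 8 samples, with the genotype effect at 4 h minus that at 0 h as an interaction. The prior added 1.03 degrees of freedom to the 4 residual ones. Genes were named by rule: members called between genotypes or in the interaction, the 6 largest rises and falls in WT, 7 anchor genes, Nudt21 and the 3 largest called rises and falls among further pathway genes in each genotype comparison. Interaction calls among the further genes were named after their values were seen. Alternatives were other scalings, pseudocounts, filters, variance models and thresholds, a replicate block, only the samples compared, and each sample left out. The fit was tested on simulated data of 15615 genes for the 4 h comparison, where it recovered 31.2% of genes changed by a log2 of 1 and 63.9% of those changed by 2. Promoter sequences were from RefSeq (GRCm38.p6) and positions and transcripts from GENCODE M21 (GRCm38). Gene copies were sought with blastn 2.17.0 at 95% identity over 300 bases.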

Additional observations from a re-analysis of the deposited data

Results flagged for a closer look

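For 8 genes the genotype effect at 4 h differed from that at 0 h by the interaction test in limma. The effect was higher at 4 h for 3 and lower for 1 of the 39, and likewise for 3 and 1 of the 117 further genes tested. Over all genes tested, 1.82% and 1.14% were called in these directions. The value given for each gene is the log2 difference of cKO from WT after stimulation minus the same difference before it. It was 3.30 for Trib3 (-0.59 at 0 h and 2.71 at 4 h), 1.97 for Sesn2 (-0.39 and 1.58), 1.11 for Asns (-0.08 and 1.02) and -0.82 for Edem1 (1.38 and 0.56). Among the further pathway genes it was 2.84 for Gdf15 (adjusted p = 0.0466, limma), 1.87 for Slc7a5, which encodes a leucine transporter (adjusted p = 0.0439, limma), 1.59 for Slc6a9, which encodes a glycine transporter (adjusted p = 0.0305, limma), and -0.91 for Sec63, a part of the ER translocation machinery (adjusted p = 0.046, limma). Slc7a5 was at 47.5 and 34.8 in WT and 28.4 and 24.6 in cKO samples at 0 h, and at 80.5 and 95.1 against 196 and 222 at 4 h. Slc6a9 was low throughout, at 2.2 and 2.78 in WT and 1.35 and 1.55 in cKO samples at 0 h and at 7.73 and 7.75 against 14.5 and 13.7 at 4 h. Sec63 was at 632 and 724 in WT and 989 and 974 in cKO samples at 0 h, and at 1491 and 1432 against 1110.5 and 1143 at 4 h, so that the genotypes stood in opposite order at the 2 times. In the 8 fits that left out 1 sample each, Trib3 and Sesn2 were called 8 times, Asns and Slc6a9 2 times, Slc7a5 1 time, and Edem1, Gdf15 and Sec63 0 times (adjusted p from 0.0501 to 0.151 for these 3, limma). Quantile normalization lost the calls of Asns, Gdf15, Slc6a9 and Sec63, equal total coverage those of Edem1, Slc7a5 and Sec63, and the deposited values those of Edem1 and Sec63. Without a filter on low values the calls of Edem1, Gdf15 and Sec63 were lost, with a variance trend that of Slc6a9, with a pseudocount of 1 that of Edem1, and with a replicate block those of all 8 genes.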

How the results depend on the processing

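The filters and the pseudocount kept the counts of called members within 1.5 times, except that the member called lower in the interaction (1, Edem1) became 0 with a pseudocount of 1 and with no filter. On the deposited scale the members called higher and lower were 4 and 1 at 0 h, 14 and 2 at 4 h, 6 and 12 for stimulation in WT, 11 and 9 in cKO, and 0 lower in the interaction, and their median log2 differences were -0.077, 0.45, -0.33 and 0.10. Of all 16284 genes tested on this scale, 532 and 262 were called at 0 h and 2604 and 448 at 4 h. In stimulation 1901 and 8910 were called in WT and 2143 and 8213 in cKO, and 124 were lower in the interaction. With equal total coverage 1 member was lower at 0 h, the median at 4 h was 0.24, stimulation gave 7 higher and 12 lower in WT (median -0.28) and 10 and 9 in cKO (median 0.057), and 0 were lower in the interaction. Of all 16270 genes tested there, 330 were lower at 0 h and 121 in the interaction. Stimulation gave 1952 higher and 8668 lower of all genes in WT and 2093 and 8326 in cKO. With quantile normalization 2 members were lower at 4 h, and stimulation gave 10 higher and 10 lower in WT (median 0.045) and 14 and 9 in cKO (median 0.20). Of all 16284 genes tested there, 820 were lower at 4 h. Stimulation gave 3514 higher and 4636 lower of all genes in WT and 3366 and 4671 in cKO.

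Of the 39 members, 3 turned sign on the deposited scale at 0 h, 8 at 4 h, 14 in WT and 13 in cKO stimulation and 9 in the interaction. With equal total coverage these counts were 0, 1, 13, 13 and 8, and with quantile normalization 0, 0, 11, 10 and 4. The values that follow are for the genes recomputed under every alternative in a comparison, which are fewer than the members counted here. Signs turned on the deposited scale for Asns at 0 h (0.027), Xbp1 and Hspa5 at 4 h (0.099 and 0.015), Ddit3, Xbp1, Atf6 and Asns in WT stimulation (-0.88, -0.22, -0.98 and -0.040) and Ddit3, Xbp1 and Hsp90b1 in cKO stimulation (-0.31, -0.048 and -0.0048). With equal total coverage they turned for Ddit3, Xbp1 and Atf6 in WT (-0.83, -0.17 and -0.93) and Ddit3, Xbp1 and Hsp90b1 in cKO stimulation (-0.35, -0.087 and -0.043). With quantile normalization they turned for Xbp1, Atf6 and Hsp90b1 in WT (-0.043, -0.44 and -0.043) and Hsp90b1 in cKO stimulation (-0.37). With a variance trend the interaction called 1188 genes and 5 members higher. By unadjusted p, 1956 genes and 5 lower members were called at 0 h, and 2582 genes and 8 higher members in the interaction. With any fold change 5 members were lower in cKO stimulation. Fitting only the 4 samples compared, which leaves fewer degrees of freedom, called 137 genes at 0 h (members 1 higher, 0 lower) and 270 at 4 h (2 higher, Trib3 and Sesn2, and 0 lower).

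Leaving out 1 sample gave 229 to 425 genes called at 0 h (809 with all samples), 789 to 2331 at 4 h (2259), 205 to 698 in the interaction (478), 7742 to 8740 in WT stimulation (8648) and 7067 to 7507 in cKO stimulation (8247). Members called higher and lower were 1 to 2 and 0 to 0 at 0 h, 4 to 7 and 1 to 3 at 4 h, 2 to 3 and 0 to 0 in the interaction, 22 to 24 and 6 to 6 in WT and 22 to 25 and 3 to 4 in cKO stimulation. Their medians were -0.21 to -0.16 at 0 h, 0.10 to 0.15 at 4 h, 0.68 to 0.89 in WT and 0.95 to 1.06 in cKO stimulation. The fewest calls came without cKO replicate 4 at 0 h and at 4 h. Signs turned for Chac1 at 0 h without WT replicate 1 or cKO replicate 4 (range -0.96 to 0.49, and 0.062 without the latter), for Atf4 at 0 h (-0.036 to 0.42), Ddit3 at 0 h (-0.34 to 0.59) and Ddit3 in WT stimulation (-0.24 to 0.69) without WT replicate 2 at 0 h, and for Xbp1 at 4 h without WT replicate 1 (range -0.44 to 0.045). The letters CCACG alone were in 27 promoters.

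WT samples are numbered 1 and 2 and cKO samples 3 and 4, so the genotypes share no number and no block could be fitted between them. Samples of 1 number at the 2 times deviated together by r = 0.02 in WT and 0.03 in cKO. Such values cannot show that these samples came from different pools, and the titles repeat the numbers at both times. The main fit did not pair them, so its p-values for stimulation and the interaction take the 8 samples as independent. With a replicate block the interaction called 28 genes and 0 and 0 members, with fewer residual degrees of freedom. The files hold no counts, so what depth could detect is unknown. The cause of the other changes was not tested.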

Other observations

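Stimulation also moved further genes of these pathways, which were picked here after their values were seen. Nupr1, an ISR-linked chromatin protein, rose from 47.5 and 47.3 to 10172 and 8055 in WT cells, and from 49.4 and 94.0 to 4839 and 4927 in cKO cells (log2 7.58 and 6.16, SE 0.32). On the deposited values these rises were 6.47 and 5.24. Slc7a11 rose by 6.47 and 5.58 on scaled values (SE 0.25). Eif2ak2, which encodes the RNA-activated eIF2α kinase PKR, rose by 3.77 in WT and 3.61 in cKO cells (SE 0.12), from 319 and 368 to 5033 and 4361 in WT, whereas the other eIF2α kinases fell in WT cells as described above. Of the 117 further genes tested, 53 were called higher and 13 lower in WT and 53 higher and 9 lower in cKO cells on scaled values, where 25.9% and 27.7% of all genes tested were called in WT and 25% and 26.2% in cKO. On the deposited values the counts were 9 and 59 in WT, where 11.7% and 54.7% of all genes were called, and 17 and 46 in cKO cells, where 13.2% and 50.4% were.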
